A study of Homo sapiens with 2 samples.

Results

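The HOX clusters and the sequence around them were examined in a list of LSD2-bound regions from HepG2, an established human line derived from a liver tumour. Members were the peaks whose midpoint lay in a window of 1 Mb (hg19) around each of the 4 HOX clusters, with identical lines counted as 1 peak, and they numbered 592 of 370863. LSD2, encoded by KDM1B, was precipitated from crosslinked, sonicated chromatin for sequencing (ChIP-seq), using a polyclonal antibody that rabbits made to the recombinant human protein from residue 26 to residue 822. The control was input, chromatin DNA from the same line that was not precipitated. The cells of both libraries grew in medium with 25 mM glucose and 10% serum, with no other treatment given in the labels. There was 1 LSD2 ChIP library and 1 input library, so no value below can be set against replicate error. The list gives the start and end of each peak without a height or p-value, and the sequencing depth is unknown here.

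The windows were chr7:26700000-27700000 for HOXA, chr17:46200000-47200000 for HOXB, chr12:53900000-54900000 for HOXC and chr2:176500000-177500000 for HOXD. Within them the clusters ran over chr7:27132612-27250000, chr17:46606807-46805858, chr12:54332576-54449814 and chr2:176957532-177055635. The rest of each window was its flanks, the left flank being the side of lower coordinates. The clusters held 60 of the peaks and the flanks 532.

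HOX genes encode homeodomain transcription factors that set position along the body axis, and in each cluster the order of the genes follows the order in which they are used along that axis. The clusters arose by duplication of 1 ancestral cluster, lie in DNA rich in CpG dinucleotides and are a classical target of Polycomb repression in cells that do not use them. LSD2 is a flavin-dependent demethylase that removes methyl groups from lysine 4 of histone H3, where methylation marks promoters and enhancers, and it has been described in the bodies of transcribed genes. What the clusters hold was taken from RefSeq (GRCh38.p14), which lists all 39 HOX genes, namely 11 in HOXA, 10 in HOXB, 9 in HOXC and 9 in HOXD. Only names and order were used from it, because it is on another build than the peaks, so no gene could be placed on a peak and exons, introns and promoters were not analysed here. In that table HOXB1, HOXC13 and HOXD13 stand at the low-coordinate end of their clusters, and HOXA13 at the high-coordinate end of its own. EVX1, a homeobox gene beside HOXA13, and EVX2, beside HOXD13, follow the posterior ends. SKAP1, an adaptor protein gene, precedes HOXB1.

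The clusters also carry microRNA genes, and those of the mir-196 family, in HOXA, HOXB and HOXC, show how alike their contents can be. Mature sequences of the 5p arm are shown 5′ to 3′ from RefSeq (GRCh38.p14), with the seed, bases 2 to 8, in capitals. MIR196B lies among the HOXA genes, MIR196A1 and MIR10A in HOXB, MIR196A2 in HOXC and MIR10B among the HOXD genes.
hsa-miR-196a-5p: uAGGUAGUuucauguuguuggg
hsa-miR-196b-5p: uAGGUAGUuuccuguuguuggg
hsa-miR-10a-5p: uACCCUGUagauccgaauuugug
MIR196A1 and MIR196A2 give the same 22 letters, and the product of MIR196B differs from them in 1 letter outside the seed. The peak list does not say whether any of these genes carried a peak.

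LSD2 peaks were present in all 4 clusters, as in 28933 of 29144 stretches of the length of HOXD, the shortest cluster, in the list. Presence was thus ordinary in this list. HOXA alone was sparser than its flanks beyond the counting interval. The density was also lower than in the flanks in HOXC and HOXD and higher in HOXB, with intervals that included equality. HOXA held 8 peaks in 117 kb, or 68.1 per Mb, against 171 per Mb in its flanks. HOXC held 7 peaks in 117 kb, or 59.7 per Mb, against 113 per Mb. HOXD held 11 peaks in 98.1 kb, or 112 per Mb, against 185 per Mb. HOXB held 34 peaks in 199 kb, or 171 per Mb, against 142 per Mb. Thus HOXA had 1 peak per 14.7 kb and HOXB 1 per 5.85 kb.

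The ratio of cluster to flank density was 0.40 in HOXA, with a 95% interval of 0.17 to 0.81 from the exact Clopper-Pearson interval of the share of the window's peaks that fell in the cluster. The ratio was 0.53 in HOXC (0.21 to 1.13), 0.61 in HOXD (0.30 to 1.11) and 1.20 in HOXB (0.79 to 1.77). HOXA was therefore the 1 cluster whose interval excluded equality with its flanks, while the intervals of HOXB, HOXC and HOXD included it. These intervals cover counting only and take each peak as independent of its neighbours, although neighbours may depend on one another. The HOXA call depended on the choice of flanks and peaks and on counting repeated lines once. With every line counted its ratio was 0.96 (0.58 to 1.52), and that of HOXB was 1.92 (1.41 to 2.60), so that HOXB and not HOXA then excluded equality, although repeats of 1 peak are not independent. Against the nearest 200 kb on each side its ratio was 0.50 (0.21 to 1.07), and among peaks of at least the median width of the list, 173 bp, it was 0.33 (0.07 to 1.01). With HOXC and HOXD widened by 20 kb on each side, their ratios were both 0.49, with intervals of 0.22 to 0.97 and 0.26 to 0.86.

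Over the 4 loci together the ratio was 0.74 (0.55 to 0.96), which HOXB pulls toward 1. Without HOXB it was 0.50 (0.32 to 0.74), a grouping chosen after the values had been seen. It was 0.85 (0.62 to 1.14) without HOXA, 0.77 (0.56 to 1.02) without HOXC and 0.79 (0.58 to 1.07) without HOXD, so that no interval excluded equality once any of these was left out. HOXB had 2.19 times the density of the other clusters together (1.27 to 3.79), likewise a grouping made after seeing the values.

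How common such values are in the list was taken from all 1 Mb tiles of the searched sequence, each divided as the HOX windows are. A middle stretch as sparse against its flanks as HOXA, or sparser, was found in 4.19% of 2838 tiles. For HOXC this share was 9.16% and for HOXD 15.4%. For HOXB, 26.1% of tiles had a ratio as high or higher. Only HOXA thus lay below the 5th percentile of the tiles, which was 0.44 for its geometry. Counts alone were less unusual than ratios in HOXA, HOXC and HOXD. For HOXA, 19.5% of 24356 tiles of its length held 8 peaks or fewer. Tiles of that length held 14 peaks at the median, with quartiles of 10 and 20. As few peaks as in HOXC or fewer were found in 15.1% of tiles of its length, and as few as in HOXD or fewer in 49.1%. As many as in HOXB or more were found in 23.3%, against 26.1% for its ratio. The flanks of HOXA, HOXB and HOXD were denser than the 130 peaks per Mb of all searched sequence, and those of HOXC were less dense. Chromosome 2, which carries HOXD, had 177 peaks per Mb, while chromosome 7 had 124, chromosome 17 had 141 and chromosome 12 had 131. Among tiles of chromosome 2 alone, 20.5% held as few peaks as HOXD or fewer.

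**Figure D1:**
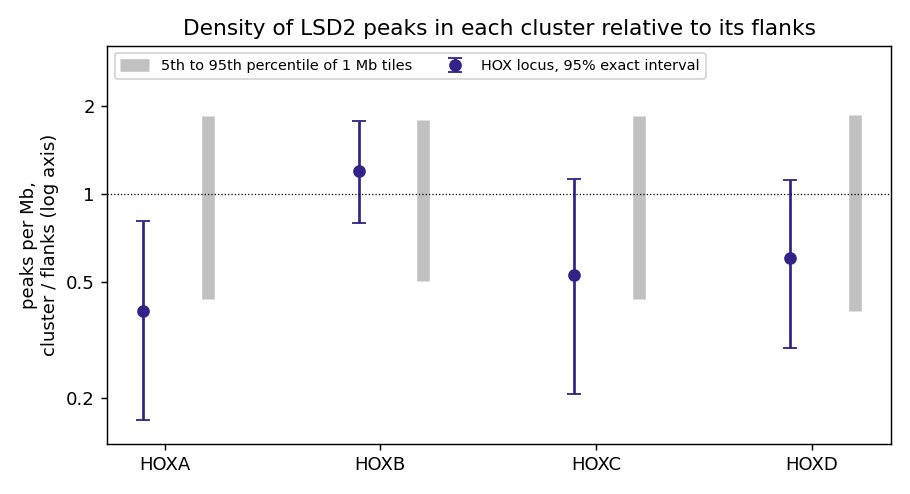
Ratio of peaks per Mb in each HOX cluster to peaks per Mb in both of its flanks, on a log axis, with the 95% exact counting interval (points and bars) and the 5th to 95th percentile of the same ratio over 2838 tiles of 1 Mb (grey). HOXA, at 0.40, lies under the grey range, while HOXC (0.53), HOXD (0.61) and HOXB (1.20) lie within it.

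The share of bases inside peaks gave the same order of HOXA, HOXC, HOXD and HOXB relative to flanks. Peaks covered 1.25% of the HOXA cluster against 3.86% of its flanks, a ratio of 0.32. In HOXC they covered 1.12% against 2.39% (0.47), in HOXD 2.88% against 4.38% (0.66) and in HOXB 3.64% against 3.38% (1.08). Coverage has no counting interval of its own, and its reliability is that of the peak numbers.

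The 8 peaks of HOXA lay in the first 85.8 kb of the cluster from the low-coordinate side. From that side they were at chr7:27144661-27144810 (150 bp wide), chr7:27156039-27156298 (260 bp), chr7:27160159-27160319 (161 bp) and chr7:27164339-27164483 (145 bp). These 4 fell within 19.8 kb. Then came chr7:27182416-27182565 (150 bp), chr7:27203296-27203443 (148 bp), chr7:27210842-27211115 (274 bp, the widest) and chr7:27218278-27218454 (177 bp). No peak followed in the last 31.5 kb of the cluster, the side of HOXA13 in the RefSeq order, and the peak-free stretch, 33.2 kb in all, ended at chr7:27251681-27251929, 1.68 kb outside. On the other side the nearest peak outside, chr7:27130835-27131160, was 1.45 kb from the bound and 326 bp wide, and the first inside was 12.05 kb from it. Peaks thus stood just outside both bounds and not just inside them.

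HOXC had its 7 peaks in 3 groups. On the low-coordinate side, that of HOXC13 in the RefSeq order, were chr12:54338099-54338242 (144 bp) and chr12:54356437-54356720 (284 bp, the widest). A stretch of 41.9 kb without a peak followed, from 54356721 to 54398595, the longest inside any of the 4 clusters. In the list 1.30% of gaps were as long or longer. Beyond it came chr12:54398596-54398860 (265 bp), chr12:54409554-54409710 (157 bp) and chr12:54412317-54412470 (154 bp). The last were chr12:54439443-54439594 (152 bp) and chr12:54442886-54443047 (162 bp), on the side of HOXC4, HOXC5 and HOXC6. The nearest peaks outside the cluster were 1.06 kb and 9.30 kb from its bounds.

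HOXD began with wide peaks. The first from the low-coordinate side, that of HOXD13, were chr2:176961134-176961548 (415 bp) and chr2:176966943-176967292 (350 bp). A pair 504 bp apart followed at chr2:176977711-176977895 (185 bp) and chr2:176978400-176978552 (153 bp). The middle of the cluster held chr2:176993267-176993419 (153 bp), chr2:177005738-177006026 (289 bp) and chr2:177009426-177009850 (425 bp, the widest peak of all 4 clusters). After 22.6 kb without a peak came chr2:177032486-177032879 (394 bp). The end on the side of HOXD1 held 3 short peaks, namely a pair 381 bp apart at chr2:177050087-177050250 (164 bp) and chr2:177050632-177050784 (153 bp), and chr2:177055316-177055460 (145 bp), which lay 0.175 kb inside the bound. The 4 peaks of 350 bp or more thus lay in the first 75.3 kb of the cluster. Outside, the nearest peak on the HOXD13 side, next to which EVX2 stands in the RefSeq order, was 29.0 kb away, the longest distance from any of the bounds to a peak outside.

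HOXB was filled from end to end, with 34 peaks from chr17:46610810-46610963 (154 bp), 4.003 kb inside the bound on the HOXB1 side, to chr17:46803158-46803437 (280 bp), 2.42 kb inside the bound on the HOXB13 side. The widest was chr17:46622750-46623172, at 423 bp. The longest stretch between 2 peaks of the cluster was 24.7 kb, from 46671137 to 46695826. It was shorter than the longest such stretch in HOXC and longer than those in HOXA (20.7 kb) and HOXD (22.6 kb). The peak-free end of HOXA, with 31.5 kb inside that cluster, was longer than the HOXB stretch. HOXB also held 4 pairs of neighbours under 1 kb apart. The closest, 433 bp apart, was chr17:46666259-46666466 with chr17:46666900-46667109. The pair at chr17:46767594-46767796 and chr17:46768335-46768644 was 538 bp apart, and that at chr17:46794170-46794514 and chr17:46795059-46795211 was 544 bp apart. The fourth, chr17:46717096-46717254 with chr17:46718217-46718363, was 962 bp apart. HOXD had 2 such pairs, and HOXA and HOXC had 0. The 4 in HOXB were of 33 gaps, against 10 of 62 in its left flank and 13 of 50 in its right. In HOXD the 2 were of 10 gaps, against 19 of 86 and 15 of 79. Close pairs were thus no more frequent in the HOXB cluster than beside it, and about as frequent in HOXD as beside it. The median gap between successive peaks was 3.42 kb in HOXB, as against 7.40 kb in HOXA, 14.4 kb in HOXC and 7.91 kb in HOXD. It was 4.01 and 4.05 kb in the left and right flanks of HOXB and 4218 bp in the whole list, so the spacing in HOXB was near both. Flank medians of the other loci ran from 3.01 kb (HOXD left) to 4.94 kb (HOXC right).

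**Figure D2:**
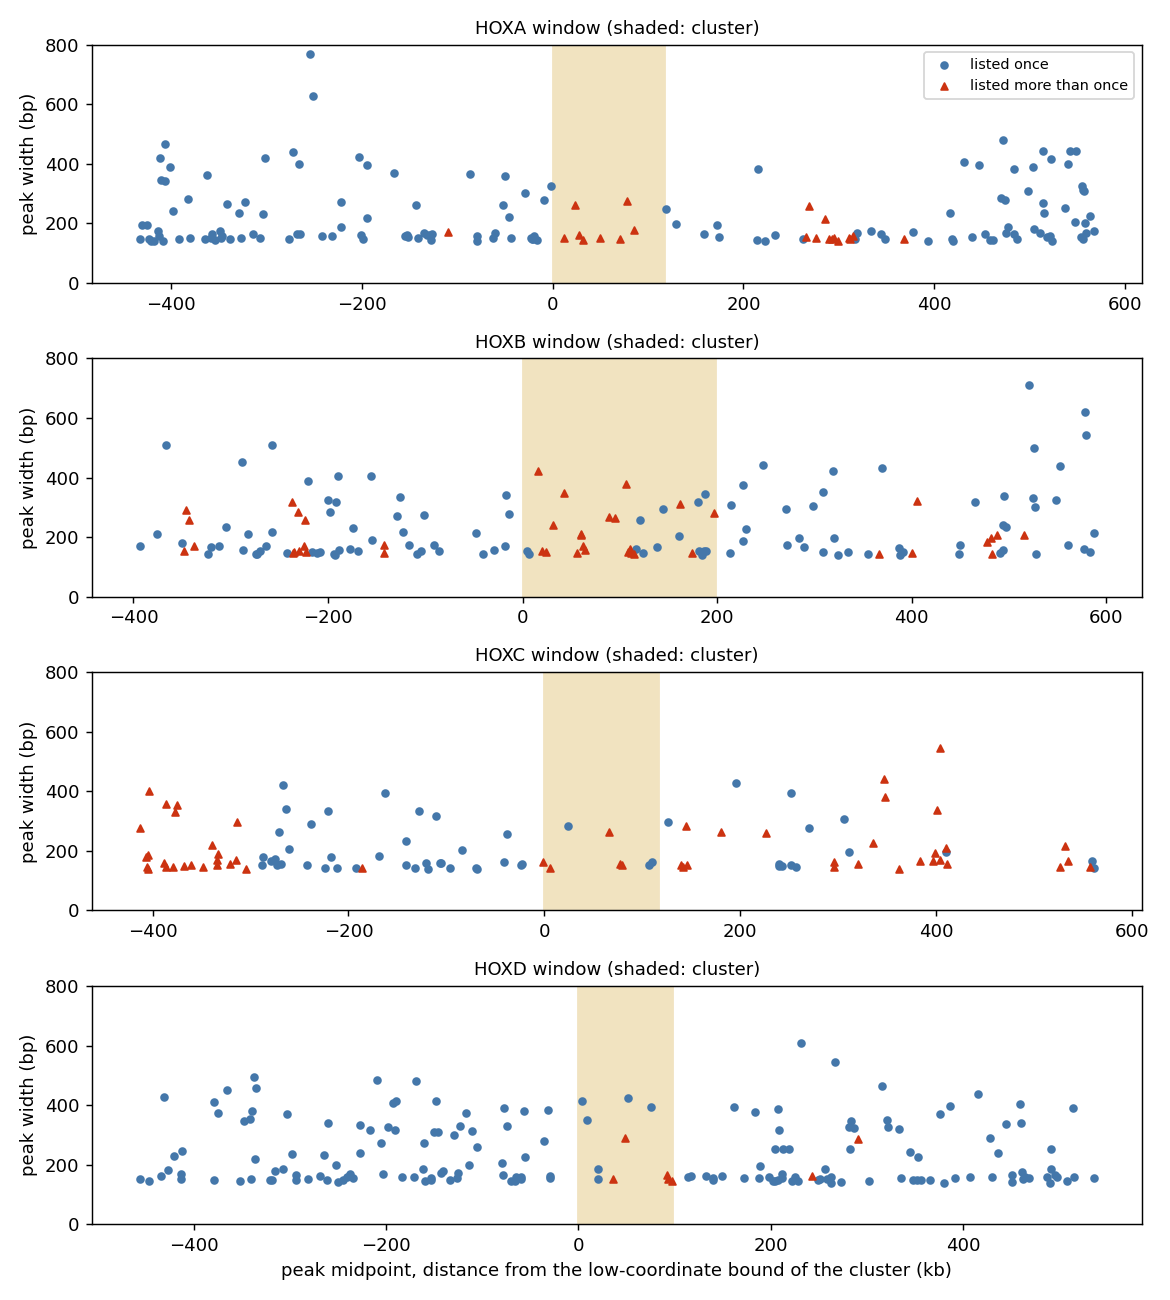
Width of each LSD2 peak (vertical axis, bp) against the distance of its midpoint from the low-coordinate bound of the cluster (horizontal axis, kb) in the 4 windows, with the cluster shaded and each peak marked by whether the list holds it once (blue circles) or more than once (red triangles). The shaded HOXA and HOXC clusters hold 8 and 7 peaks of at most 274 and 284 bp, HOXB holds 34, and the red triangles fill the HOXA cluster and a stretch of HOXB.

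Peaks in the clusters were about as wide as those around them. The median width was 155.5 bp in HOXA (lowest 145, highest 274), 157 bp in HOXC (144 to 284), 162.5 bp in HOXB (140 to 423) and 185 bp in HOXD (145 to 425). Flank medians were 166, 165, 182 and 173 bp for HOXA, HOXC, HOXB and HOXD, and that of the whole list was 173 bp. The 95% interval of each cluster's median overlapped that of its flanks, as in HOXA with 145 to 274 bp against 161 to 187 bp. Peaks of at least 200 bp made up 24 of 60 in the clusters, or 40.0% (95% Clopper-Pearson interval 27.6% to 53.5%), against 40.4% in the flanks and 42.2% in the whole list. The share thus stood near the background. The widest 10% of the list, peaks of at least 387 bp, had 0 of 8 members in HOXA and 0 of 7 in HOXC, against 19 of 151 and 7 of 100 in their flanks. HOXB had 1 of 34 against 14 of 114, and HOXD had 3 of 11 against 19 of 167. Among these widest peaks, the intervals of the ratio of cluster to flank density included equality at all 4 loci.

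The list holds some peaks on several identical lines, and the headers and labels do not say what the repetition stands for. Peaks listed more than once made up 10.1% of the list but 37 of the 60 in the HOX clusters, or 61.7% (48.2% to 73.9%), and 87 of the 532 in the flanks, or 16.4% (13.3% to 19.8%). In HOXA all 8 of 8 cluster peaks were listed more than once (exact interval 63.1% to 100%) against 13 of 151 in the flanks, or 8.61% (4.66% to 14.3%). In HOXB the counts were 20 of 34, or 58.8% (40.7% to 75.4%), against 22 of 114, or 19.3% (12.5% to 27.7%). In HOXD they were 5 of 11, or 45.5% (16.7% to 76.6%), against 2 of 167, or 1.20% (0.15% to 4.26%). In these 3 loci the intervals of cluster and flanks did not overlap. Among peaks of at least the median width they overlapped in HOXD, where 1 of 6 cluster peaks was repeated, or 16.7% (0.42% to 64.1%), against 1 of 84 in the flanks, or 1.19% (0.03% to 6.46%). In HOXC the intervals overlapped, with 4 of 7 in the cluster, or 57.1% (18.4% to 90.1%), against 50 of 100 in the flanks (39.8% to 60.2%). Within 200 kb of that cluster the flank share was 10 of 41, or 24.4% (12.4% to 40.3%), and the intervals still overlapped. With 7 peaks in the cluster, its interval is wide. Neighbouring peaks tended to be repeated together, so these intervals are too narrow.

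As a background, tiles as long as each cluster were taken over all searched sequence. A share of repeated peaks as high as in HOXA was found in 0.665% of tiles with a peak, as high as in HOXB or higher in 2.26%, in HOXC in 3.65% and in HOXD in 5.91%. By number, 1.74% of tiles held 20 or more repeated peaks, as HOXB did, and 5.39% held 8 or more, as HOXA did. By comparison, 14.1% held as many as HOXC and 8.89% as many as HOXD.

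Peaks on 3 lines or more made up 1.2% of the list and numbered 17 of 60 in the clusters and 15 of 532 in the flanks. All 15 lay in the right flank of HOXC, among its 39 peaks, and no other flank had a peak on more than 2 lines. In HOXA the widest peak, at 27210842, stood on 5 lines, a number reached by 0.0415% of the list. The peaks at 27182416 and 27203296 stood on 3 lines, and the other 5 on 2. In HOXC the 3 peaks from 54398596 to 54412470 stood on 4 lines each and that at 54338099 on 2. The remaining 3 peaks, on either side of that group, were listed once.

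In HOXB repeated and unrepeated peaks stood apart. Its first 2 peaks were listed once, and the next 17 in succession, from 46622750 to 46720883 over 98.1 kb, were all repeated. The 17 included the widest peak (3 lines) and the peak at 46626752, the 1 peak of the cluster on 4 lines. Of the 15 peaks beyond them 3 were repeated, at 46768335 (3 lines), 46781283 (2 lines) and 46803158 (3 lines, the last peak of the cluster). In all, 10 peaks of HOXB stood on 2 lines and 9 on 3. In the RefSeq order the genes from HOXB1 to HOXB9 stand together and HOXB13 stands apart, behind MIR196A1, PRAC2 and PRAC1. Whether the repeated run falls on any of these genes was not tested, because no gene could be placed on a peak.

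HOXD had its repeated peaks in a pair and a group of 3. The pair was the successive peaks at 176993267 (3 lines) and 177005738 (2 lines), and the group was the last 3 peaks of the cluster, each on 2 lines. The wide peaks of at least 350 bp were all listed once. Within HOXD, peaks listed once had a median width of 372 bp (n = 6) and repeated ones 153 bp (n = 5). HOXB went the other way, with 157 bp for peaks listed once (n = 14) and 188.5 bp for repeated ones (n = 20). In HOXC the medians were 162 bp for peaks listed once (n = 3) and 155.5 bp for repeated ones (n = 4). Pooled, they were 166 and 159 bp in the 4 clusters and 173 and 165 bp in the flanks. Over the whole list the medians were 172 and 178 bp, so width and repetition had no common direction here.

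**Figure D3:**
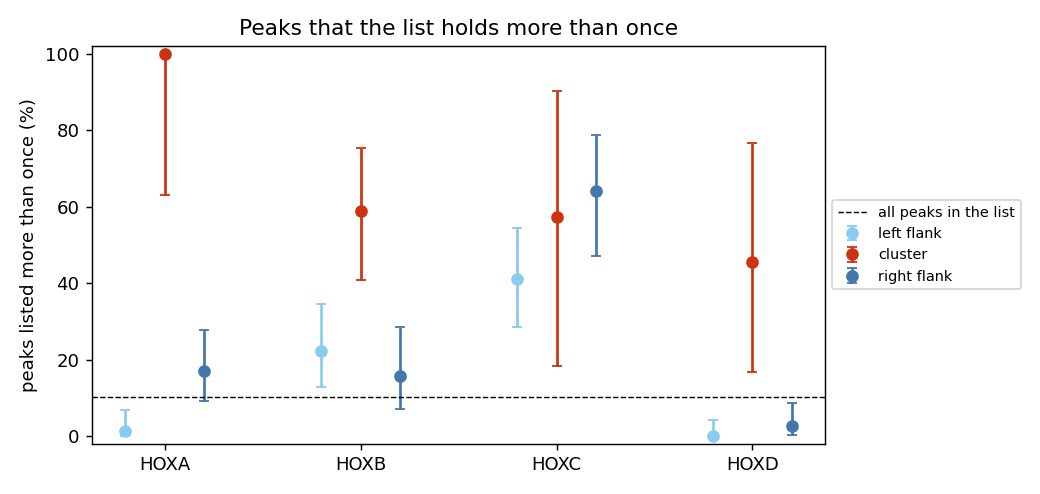
Share of peaks that the list holds on more than 1 line (vertical axis, percent) in the left flank, cluster and right flank of each HOX locus, with exact 95% intervals, and the share over the whole list (dashed, 10.1%). The cluster stands above both flanks in HOXA (100%), HOXB (58.8%) and HOXD (45.5%), while in HOXC the right flank, at 64.1%, is as high as the cluster.

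Beyond the clusters, density changed with distance in different ways. The HOXA cluster opened on its right, the side of EVX1 in the RefSeq order, onto 3 bins of 50 kb that held 3, 4 and 4 peaks, whereas the first bin on its left held 11. The fourth bin on the right held 11 peaks, the fifth and the sixth 4 each, and the last 2 bins 15 and 18. Over all 57213 bins of this size in the list, the median was 6 and the quartiles were 4 and 9. The first 150 kb past the cluster on the right held bins at or below the lower quartile, as were the fifth and sixth. Among the longest peak-free stretches of that window, those of 39.3 kb (27307484 to 27346801), 29.6 kb (27365591 to 27395211) and 29.0 kb (27261900 to 27290940) all lay in this part. The densest bin of the right flank was the outermost, chr7:27650001-27700000, and the densest of the left flank, with 12 peaks, was chr7:26782612-26832611. The sparsest bins were the first on the right, chr7:27250001-27300000, and a bin of 6 peaks on the left, chr7:27032612-27082611. The widest peaks of the flanks were chr7:26878090-26878858, at 769 bp the widest of all 4 windows, and chr7:27604432-27604910, at 479 bp.

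The bins next to HOXD held fewer peaks than most of those farther out. On the left the first held 4 peaks, the next 4 held 11, 13, 13 and 11, and the last 4 held 9, 12, 5 and 8. On the right the first 2 held 5 and 6, the next 2 held 16 and 13, and the last 4 held 7, 9, 6 and 14. The nearest bins were within the quartiles of the list, 4 to 9. The sparsest bins of both flanks, chr2:176907532-176957531 with 4 peaks and chr2:177055636-177105635 with 5, were those next to the cluster, and the densest were chr2:176807532-176857531 with 13, equal to another bin, and chr2:177155636-177205635 with 16. At 112 peaks per Mb the cluster was equivalent to 5.61 peaks per 50 kb, like these nearest bins. Peaks on the left, the side of LNPK in the RefSeq order, had a median width of 199 bp and those on the right, the side of MTX2, 161.5 bp. Of the peaks on the left 49.4% (38.5% to 60.4%) reached 200 bp and on the right 37.5% (26.9% to 49.0%), and the intervals overlap. The widest were chr2:176619478-176619971 (494 bp) and chr2:177189022-177189631 (610 bp).

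HOXC was the 1 locus whose flanks differed in density beyond the counting interval. Its left flank held 141 peaks per Mb and its right flank 86.6, a ratio of 1.63 (1.07 to 2.50). The ratios of left to right were 1.17 (0.84 to 1.64) in HOXA, 1.20 (0.81 to 1.77) in HOXB and 1.06 (0.77 to 1.45) in HOXD. Within 200 kb of the cluster the ratio for HOXC was 1.16 (0.60 to 2.26), an interval that includes both equality and the ratio of the whole flanks. The right flank contained a peak-free stretch of 115.8 kb from 54743486 to 54859310, as long as or longer than all but 0.0777% of the gaps in the list, and 2 successive bins without a peak, the first being chr12:54749815-54799814. Bins with 0 peaks made up 2.64% of the list. Next to this stretch stood the densest bin of that flank, chr12:54699815-54749814 with 9 peaks, and the widest peak of the window, chr12:54735929-54736474, at 546 bp and on 3 lines. In the left flank the densest bin, chr12:54032576-54082575, held 10 peaks and the widest peak, chr12:54065670-54066091, was 422 bp. The sparsest held 4, in chr12:54232576-54282575 and in another bin. The cluster itself stood at 0.42 times the left flank (0.16 to 0.93) and at 0.69 times the right (0.26 to 1.56).

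HOXC also had the longest run of repeated peaks, which lay outside the cluster. At the far end of the left flank, 23 successive peaks from 53919442 to 54028249 were each listed more than once. In the right flank 11 in succession were repeated, from 54652752 to 54737210. In the HOXA window a run of 11 stood in the right flank, from 27398277 to 27447602, and in the HOXB window a run of 8 in the left flank, from 46369924 to 46384668. The 17 of the HOXB cluster were matched or exceeded by 261 of the 11670 runs in the list, and the 23 of the HOXC flank by 137. The run of 23 began at the first peak of the window and may continue beyond it, whereas runs of the list were taken over whole chromosomes. The longest run anywhere in the HOXD window was the 3 peaks inside the cluster.

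The flanks of HOXB were uneven at short distance. On the left, the side of SKAP1, the first 2 bins held 6 and 2 peaks and the fifth, chr17:46356807-46406806, held 14. The sparsest, chr17:46506807-46556806, held 2 peaks and overlapped a stretch of 37.9 kb without a peak from 46520517 to 46558465. On the right, where TTLL6 and CALCOCO2 follow in the RefSeq order, the first 4 bins held 5 or 6 peaks, chr17:47005859-47055858 held 3 and chr17:47055859-47105858 held 11. The longest stretch of the window, 43.4 kb from 47012324 to 47055731, filled most of that sparse bin. The cluster held the equivalent of 8.54 peaks per 50 kb, a level passed by 5 of the 8 bins on the left and by 1 of the 7 on the right. The widest peaks were chr17:46239985-46240494 (510 bp) and chr17:47126797-47127508 (712 bp).

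**Figure D4:**
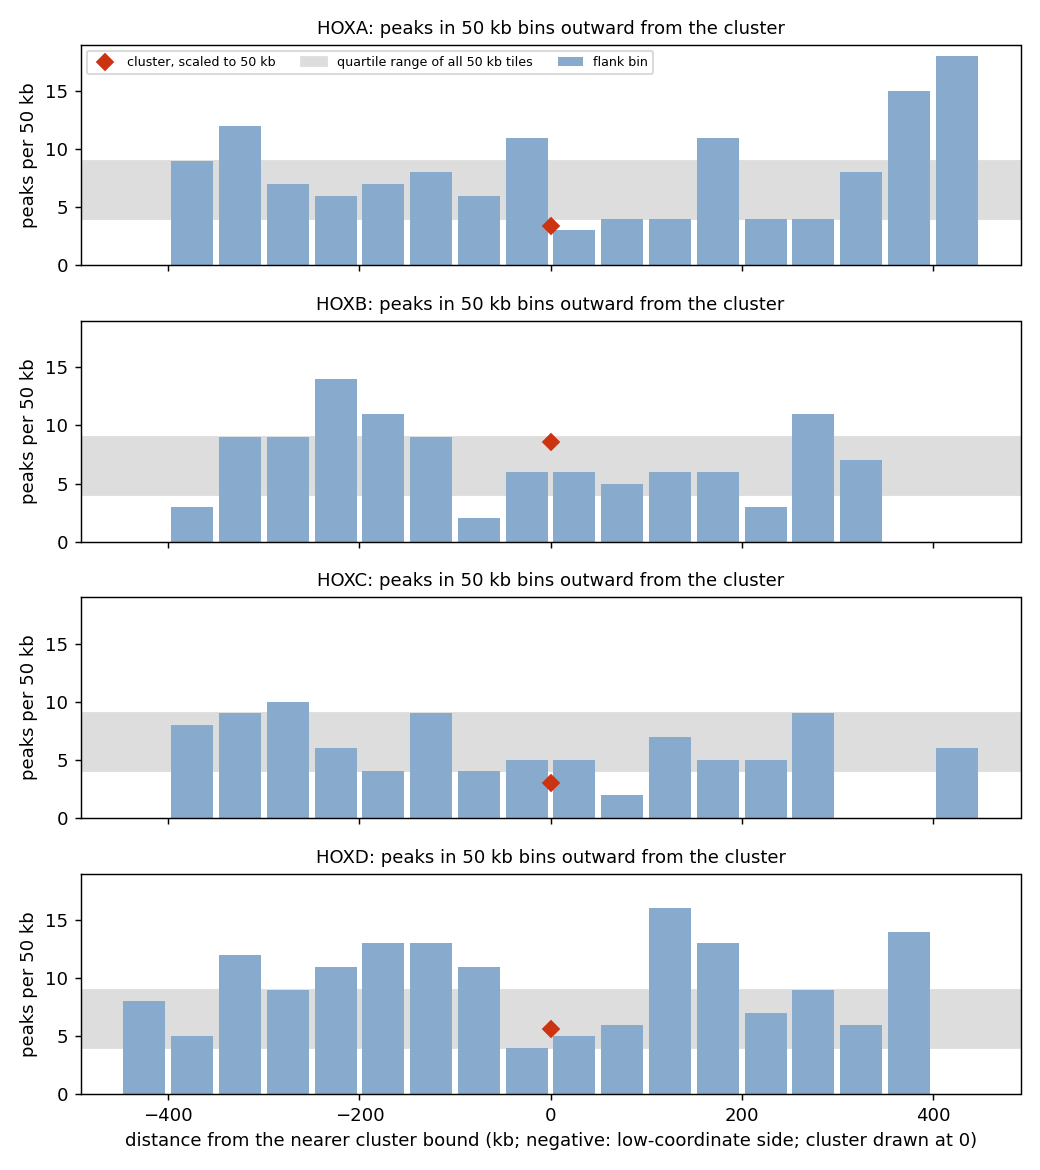
Peaks in successive 50 kb bins outward from each cluster (bars, peaks per 50 kb against kb from the nearer bound), with the density of the cluster scaled to 50 kb (diamond) and the quartile range of all 50 kb tiles, 4 to 9 peaks (grey band). The HOXA diamond stands level with the first 3 bins on its right, the HOXB diamond stands above the bins next to it, and 2 bins of the HOXC right flank hold 0 peaks.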

How the data were processed

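The authors' deposited list gives peak start and end positions on hg19, with starts counted from 0, and positions are printed counted from 1. Per the file headers, reads were trimmed and freed of duplicates, and MACS compared LSD2 with input at a p-value cutoff of 1e-05 and an enrichment factor of 32, assuming reads and fragments of 120 bp and an effective genome of 2700 Mb, with local biases detected. BWA and hg19 stand in the submitters' processing notes, without a version. Such a cutoff calls more and wider peaks where more reads fall, so density moves with depth and with the DNA copies of a region. Copy number and mappability were not analysed here. Per the file headers, ChIP and input reads carry different run dates, so run and library cannot be told apart.

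The 414095 lines gave 370863 distinct peaks, none overlapping another. A peak belonged to the region that held its midpoint. Intervals are exact 95% Clopper-Pearson intervals (scipy 1.17.1), and those of medians are from order statistics. Background tiles covered 2862 Mb, from the first to the last peak of each chromosome without peak-free stretches over 500 kb. The procedures for ratios were tested on simulated data with independent, uniformly placed peaks, the setting that the intervals assume. That test does not cover dependence between neighbouring peaks. By rule, every peak was named in clusters with 20 or fewer, and in HOXB the first, last, widest, close and repeated peaks, the last by their runs. In flanks the densest and sparsest 50 kb bin and the widest peak were named. The windows, lists and rules were chosen with earlier results of these data known. The description of repeated lines and their runs and the 1 Mb tiles were added after the positions had been seen. Python 3.11.15, numpy 2.4.6, pandas 2.3.3 and matplotlib 3.10.9 were used.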

Additional observations from a re-analysis of the deposited data

How the results depend on the processing

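Of 168 recomputed values, 139 kept their call or stayed near the main value. For density ratios the call was whether the interval excluded equality. Median widths and repeated shares had to stay within their interval, and lengths and tile shares within 1.5 times. Ratios of covered bases were held to the relative bounds of the density ratio's interval. Some values could not change, so 139 overstates stability. Among them were cluster widths and cluster repeated shares with flanks of 200 kb, and covered bases and peak-free stretches with every line counted. The HOXA density ratio, 0.40, no longer excluded equality with flanks of 200 kb (0.50), among peaks of at least the median width (0.33), among the widest 10% (0, with 0 peaks in the cluster) or with every line counted (0.96). Every line counted raised HOXB to 1.92 (1.41 to 2.60), by construction, since repeats are then added and are not independent. HOXB turned from 1.20 to 0.94 among peaks of at least the median width and 0.29 among the widest 10%, and HOXD from 0.61 to 1.45 there, on 1 and 3 peaks, with intervals that included equality as before, so these 3 count among the 139 although their direction turned. The HOXB ratio of covered bases also turned, from 1.08 to 0.90 among peaks of at least the median width, and counts among the 139. Widening clusters gave 0.49 for both HOXC and HOXD. Together, the 4 clusters gave 0.85, 0.77 and 0.79 without HOXA, HOXC and HOXD. The flank ratio of HOXC fell to 1.16 within 200 kb. Among the widest 10%, ratios of covered bases were 0 in HOXA, 0.25 in HOXB, 0 in HOXC and 1.34 in HOXD, and the longest peak-free stretches were 625.7, 230.5, 358.1 and 125.1 kb. Among peaks of at least the median width, these stretches were 82.2 kb in HOXA and 86.8 kb in HOXD. Fewer peaks lengthen gaps by construction. The median width in HOXA flanks was 158 bp within 200 kb. Tiles of chromosome 2 as sparse as HOXD made up 20.5%, against 49.1% of all tiles. Repeated peaks made up 57.1% of HOXA widened by 20 kb and 16.7% of HOXD peaks of at least the median width, where the interval overlapped that of the flanks. Within 200 kb, repeated shares of flanks were 22.2% in HOXA, 5.88% in HOXB and 24.4% in HOXC, and 2.94% among HOXA flank peaks of at least the median width. The alternatives for repeated shares and for leaving out loci were chosen after seeing the data, and the other causes of change were not tested. The count of HOX genes with a peak was not run, as no hg19 annotation was used. No paired analysis was possible because ChIP and input had 1 library each. Depth is unknown, and a stretch without a peak may have held LSD2 below what the reads could show.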
